A study of Mus musculus with 3 samples.

Results

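To see which genes of the transforming growth factor beta (TGF-beta) pathway lay beside regions recovered with Runx3, 8 genes were examined: Tgfb2, Tgfbr2, Smad3, Smad6, Smad7, Smurf1, Ski and Ltbp1. They were selected on having a row in the authors' tables of neighbouring genes, so the windows described here chose the members and are given as a description with no test. The members were 8 of the 1966 gene names in the table of the main peak list, and their windows were 12 of the 1000 in that list. Smad3 and Smad6 shared 2 windows, so the 12 windows made 14 pairs of a gene and a window. The windows were on 6 chromosomes.

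The data came from chromatin immunoprecipitation and sequencing (ChIP-seq) of superficial zone (SFZ) chondrocytes, which form the outermost layer of articular cartilage. The cells were from 5-day-old wild-type C57BL/6 mice and were grown as a monolayer. There were 3 libraries and 1 library per group, without replicates, so no comparison between conditions could be tested. Chromatin was recovered with the anti-FLAG antibody M2 in RUNX3-FLAG, with an anti-mouse IgG in IgG, and with no antibody in input. All groups had received the same treatment, lipofection of a vector that expresses Runx3 with a 3xFLAG tag, and untransfected cells were not among them. The windows therefore show where introduced, tagged Runx3 was recovered. The lists held no expression values, so the cell type could not be checked against markers. They held no read counts or peak heights either, and the depth behind a window is unknown.

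TGF-beta is secreted in a latent complex held in the extracellular matrix by latent TGF-beta binding proteins. Once released, the ligand joins a type II receptor to a type I receptor, which phosphorylates receptor-activated Smads that enter the nucleus. Inhibitory Smads, ubiquitin ligases and corepressors limit the signal. In articular cartilage the pathway is known for holding chondrocytes back from hypertrophy. Runx factors bind a short motif and are known as nuclear partners of Smads.

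Each entry of a list was a window of 101 bp, ordered by rank with 1 as the highest. The authors deposited 2 lists for the RUNX3-FLAG library. The list that also carried IgG in its name is called the IgG-named list, and the other is the main list. The sequences of 8 windows are shown, since they give the motif and its place in the window. The windows of Smad7, of Ski at rank 877 and of rank 986 between Smad3 and Smad6 are not among them. They are from the mm9 genome, on the plus strand and 5′ to 3′. Capitals mark the Runx motif (TGTGGT or TGTGGC, and likewise TGCGGT or TGCGGC) and the AP-1 motif TGANTCA, on either strand. Capital ACCACA is TGTGGT on the minus strand. The last window, at the receptor gene, held neither motif, and its capitals mark the TEAD motif CATTCC.
Smurf1, rank 359, chr5:145749790-145749890: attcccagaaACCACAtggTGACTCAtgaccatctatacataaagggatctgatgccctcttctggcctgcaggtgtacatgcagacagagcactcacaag
Tgfb2, rank 380, chr1:188500150-188500250: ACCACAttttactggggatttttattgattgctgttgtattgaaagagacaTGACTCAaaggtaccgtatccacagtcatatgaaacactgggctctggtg
Smad3 and Smad6, rank 381, chr9:63574406-63574506: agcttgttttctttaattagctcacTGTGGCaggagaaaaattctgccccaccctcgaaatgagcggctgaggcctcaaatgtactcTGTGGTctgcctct
Ltbp1, rank 466, chr17:75578023-75578123: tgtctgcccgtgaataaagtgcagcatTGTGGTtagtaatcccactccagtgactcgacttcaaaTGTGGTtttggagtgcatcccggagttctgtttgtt
Ltbp1, rank 499, chr17:75512391-75512491: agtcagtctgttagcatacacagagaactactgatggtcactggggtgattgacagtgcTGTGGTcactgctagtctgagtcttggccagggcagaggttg
Ltbp1, rank 841, chr17:75510245-75510345: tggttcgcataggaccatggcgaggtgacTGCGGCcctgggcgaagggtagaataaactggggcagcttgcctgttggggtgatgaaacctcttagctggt
Ski, rank 821, chr4:154469476-154469576: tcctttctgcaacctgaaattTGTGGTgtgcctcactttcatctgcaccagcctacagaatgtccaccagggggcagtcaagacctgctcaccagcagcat
Tgfbr2, rank 970, chr9:116062050-116062150: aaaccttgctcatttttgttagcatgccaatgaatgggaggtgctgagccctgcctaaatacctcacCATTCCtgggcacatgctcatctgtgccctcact

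The ligand and receptor genes each had 1 window, and both windows were in an intron of the gene. Tgfb2 (gene ID 21808), which encodes one of the TGF-beta ligands, had the window of rank 380, in intron 1 of a transcript of 7 exons (NM_009367), at 29668 bp from the transcription start site (TSS). The 2 lists placed this window at the same bases, at rank 382 in the IgG-named list. The window was inside Tgfb2, but the nearest gene in the authors' table was Rrp15, whose TSS was 73.0 kb away, while Lyplal1 was 559 kb away. The end of Rrp15 was 44.8 kb from the window and that of Tgfb2 52.7 kb. Tgfbr2 (gene ID 21813), the type II receptor that binds the ligand, had the window of rank 970, which was rank 938 in the IgG-named list at the same bases. It was in intron 1 of the transcript NM_029575, at 22055 bp from its TSS, and in intron 2 of NM_009371, at 22307 bp. Of the other genes that the authors listed for it, Stt3b had its TSS 843 kb away and Rbms3 1100 kb away.

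Ltbp1 (gene ID 268977), the latent TGF-beta binding protein that anchors the latent complex in the matrix, had 3 windows, the most of the 8 genes. The gene has a long transcript (NM_019919) of 386 kb and a short one (NM_206958) of 213 kb that starts further downstream. The window of rank 466 was 149 bp upstream of the TSS of the short transcript and in intron 4 of the long one, at 173 kb from its TSS. This was the only one of the 12 windows within 5 kb of a deposited TSS, against 36.5% of all 1000 windows. The windows of rank 499 and rank 841 were in intron 3 of the long transcript, at 108 kb and 105 kb from its TSS, and were 2.15 kb apart. They were 65.8 kb and 67.9 kb upstream of the TSS of the short transcript. From rank 499 to rank 466 the distance was 65.6 kb. Both lists had all 3 windows at the same bases, with ranks 461, 494 and 840 in the IgG-named list. For the pair in intron 3 the authors' table named Ttc27 as nearest, with its TSS 395 kb and 393 kb away, while the windows were inside Ltbp1. The end of Ttc27 was 250 kb and 247 kb away, and that of Ltbp1 279 kb and 281 kb.

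Smad3 and Smad6 are neighbours on chromosome 9, and the same 2 windows were listed for both. Smad3 (gene ID 17127) is a receptor-activated Smad that carries the TGF-beta signal, and Smad6 (gene ID 17130) is an inhibitory Smad that acts mainly on signals of bone morphogenetic proteins. The window of rank 381 was in intron 1 of Smad3, at 31345 bp from its TSS, and 295 kb from the TSS of Smad6. GENCODE genes of mm9 include another Smad3 transcript, which starts 14.7 kb from this window. The third gene listed there, 2310007F21Rik (now Aagab), was 124 kb away. The window of rank 986 (chr9:63744457-63744557) was between the 2 genes, 139 kb upstream of the Smad3 TSS and 125 kb from the Smad6 TSS, which put it 56.4 kb past the end of Smad6. Its distances to the 2 TSSs were thus similar, but Smad6 itself was closer than Smad3, and the authors' table named Smad6. The 2 windows were 170 kb apart. The window in the Smad3 intron had rank 404 in the IgG-named list, shifted by 3 bp. The other, of rank 986, had no partner there, so in the IgG-named list Smad6 kept a single window, the one inside Smad3.

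Smad7 (gene ID 17131), an inhibitory Smad that blocks the type I receptor, had the 2 highest ranks of the 12 windows. The window of rank 37 was at chr18:75638565-75638665 and that of rank 166 at chr18:75616523-75616623. The first (rank 39 in the IgG-named list, shifted by 4 bp) was 112 kb downstream of the Smad7 TSS and 83.0 kb past the gene's end. The other (rank 162, at the same bases) was 89.6 kb from the TSS, and the windows were 22.0 kb apart. Neither was in Smad7: they were in intron 9 and intron 10 of Gm672 (now Ctif), a translation factor gene on the opposite strand. The authors' table named Gm672 as nearest to both. Its TSS, however, was 219 kb and 241 kb away, so Smad7 had the nearest TSS for both windows. Zbtb7c was further away, at 341 kb and 363 kb.

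Smurf1 (gene ID 75788), a ubiquitin ligase that marks Smads and the receptor complex for degradation, had 1 window, of rank 359 (364 in the IgG-named list, shifted by 1 bp). It was 23141 bp upstream of the Smurf1 TSS and in intron 11 of AW146299 (now Kpna7), an importin gene whose TSS was 20665 bp away. The distances to the 2 TSSs differed little, and 1700018F24Rik was 54.0 kb away. Ski (gene ID 20481), a corepressor that binds Smad complexes, had 2 windows 140 kb apart, on opposite sides of the gene. That of rank 877 (chr4:154609958-154610058, rank 897 in the IgG-named list) was 13364 bp upstream of the Ski TSS and outside any gene. The TSS of 2610002J02Rik (now Faap20), which the authors' table named, was 14097 bp away. The other, of rank 821 (rank 831 there), was 127 kb from the Ski TSS, 58.7 kb past the gene's end. It was in intron 6 of Morn1, whose TSS was 8.84 kb away, and Rer1, named as nearest, was 9.12 kb away. For this window Ski was therefore the furthest of the 3 listed genes.

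**Figure D1:**
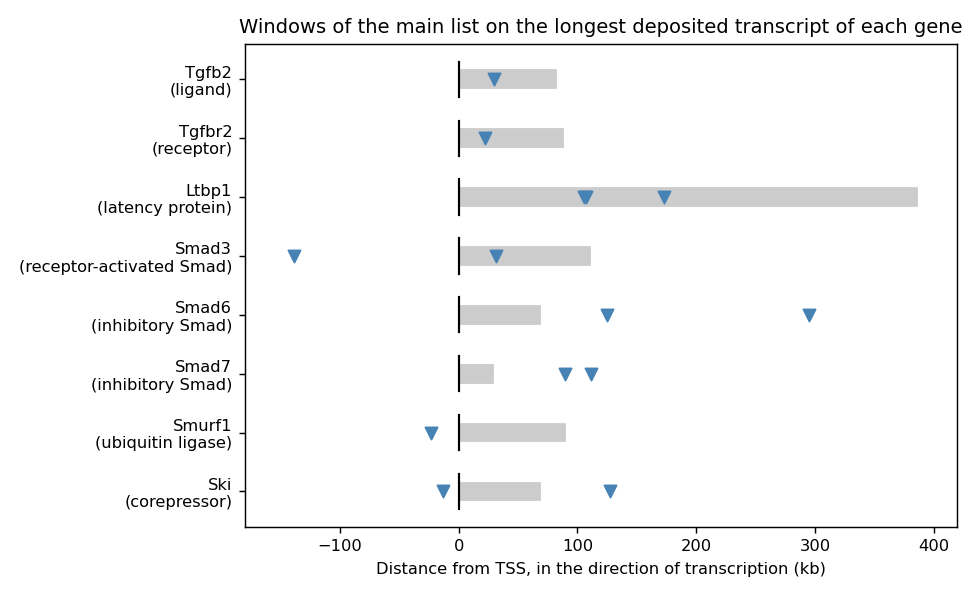
Position of each window of the main list (triangles) on the longest deposited transcript of the 8 genes (grey bars), in kb from the TSS in the direction of transcription, with the TSS as a vertical line. The windows of Tgfb2, Tgfbr2 and Ltbp1 were inside the gene, and those of Smad6, Smad7, Smurf1 and Ski were outside it.

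Among the 8 members, the position relative to the gene was not the same for each role. For the ligand, the receptor and the latency protein, 5 of 5 pairs of a gene and a window were in an intron of the gene, and the median distance to the closest TSS was 29.7 kb (0.149 to 67.9 kb). The 3 Ltbp1 pairs were in an intron of the long transcript only, at 105, 108 and 173 kb from its TSS. Their closest TSS was that of the short transcript, and they were upstream of it. For Smad3, 1 of 2 pairs was in an intron. For the 4 inhibitors Smad6, Smad7, Smurf1 and Ski, 0 of 7 pairs were inside the gene, with 5 past its end and 2 upstream, at a median of 112 kb (13.4 to 295 kb). The 2 windows of Smad6 were also those counted for Smad3, and the pair at 295 kb was the window in the Smad3 intron. The members are few and were chosen with these positions known, so the difference was not tested. The share of all gene and window pairs of the list that were inside the gene was not computed. The genes also differed in length, from 28.6 kb for Smad7 to 386 kb for the long Ltbp1 transcript. Most windows at other genes of the pathway were outside the gene. Of 11 pairs at 10 other ligand, receptor and latency genes, 3 were inside the gene (Ltbp2 and Tgfbr3) and 8 were outside, and 2 of 2 pairs at other inhibitors were outside. Of the 12 windows, 10 were in an intron of some deposited gene, against 25.3% of all windows: 6 were in a member and 4 only in another gene (Gm672, AW146299 and Morn1). The other 2 were outside deposited genes.

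**Figure D2:**
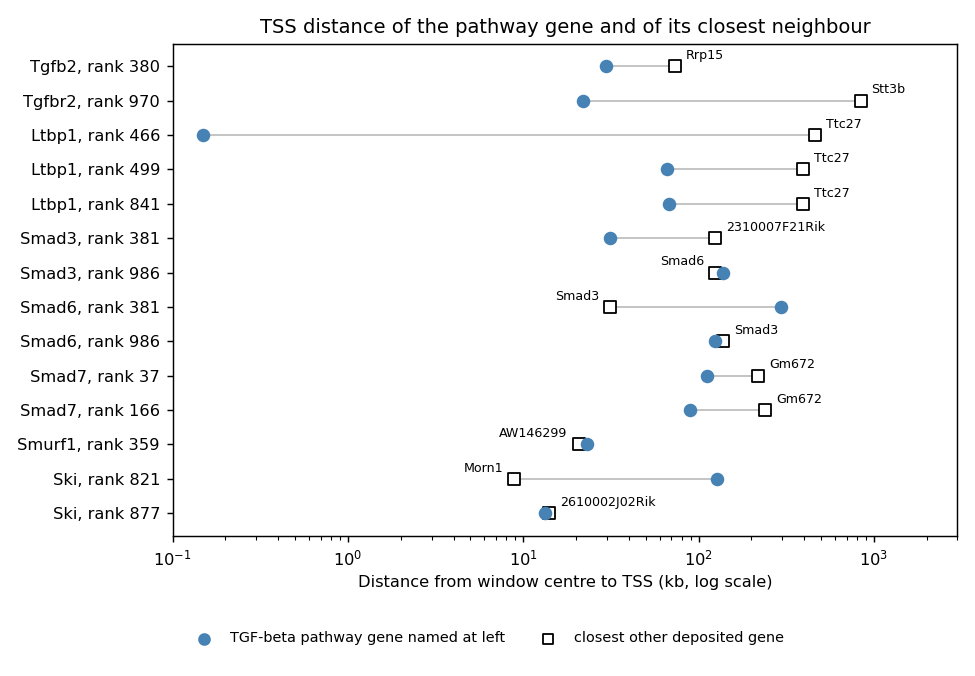
Distance from the window centre to the TSS, in kb on a log scale, for each member (filled circles) and for the closest other gene that the authors listed for that window (open squares). The other gene was closer for Smad3 at rank 986, Smad6 at rank 381, Smurf1 at rank 359 and Ski at rank 821.

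The gene assigned to a window depended on the rule of assignment. A member had the nearest TSS for 10 of the 12 windows, the exceptions being the Smurf1 window and the Ski window of rank 821, yet a member was deposited as the nearest gene for 4. For 7 windows the deposited nearest gene did not have the nearest TSS, and this held for 37.7% of all windows. In each of the 12, the deposited nearest gene was the listed gene whose end, rather than TSS, was closest to the window. By the deposited nearest gene only Tgfbr2, Smad3, Smad6 and Ltbp1 would have been linked to a window. Tgfb2, Smad7, Smurf1 and Ski would have been lost. Of the 8 members, 5 had at least 2 windows and 3 had 1, while 14.8% of the 1966 genes had at least 2. Smad3 and Smad6 reached 2 by sharing the same windows, and each had 1 in the IgG-named list. The members were chosen on these windows, so the counts are a description and were not tested.

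The ranks of the 12 windows were spread over the list. Their median was 482.5, against 500.5 for all windows, with 2 among the top 33.3% of windows, 5 among as many next in rank, and 5 after those. Smad7 alone supplied the first group. The receptor window and the one between Smad3 and Smad6 were at the other end: the main list stopped at rank 1000, and ranks 970 and 986 were the members' last inside that limit. The study called more peaks than the list holds, so a gene without a window here may have one of lower rank. Of the 12 windows, 11 had a partner in the IgG-named list and 8 of these were at identical bases. The 1 window without a partner compares with 8.8% of all windows. Both lists were made from the same RUNX3-FLAG library, so the overlap is no replicate.

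**Figure D3:**
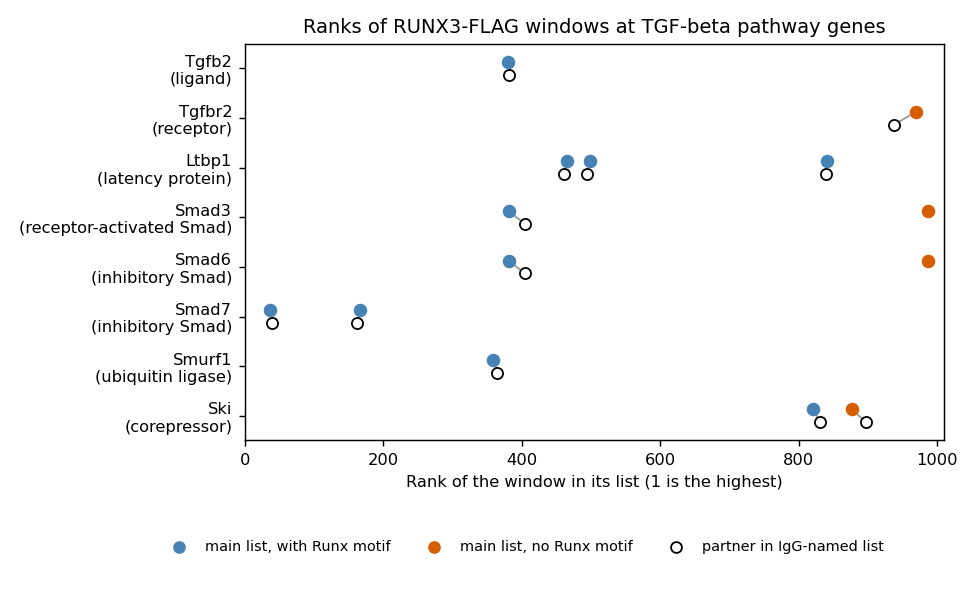
Rank of the windows at each gene in the main list (filled circles, coloured by whether the window held the Runx motif) and of their partners in the IgG-named list (open circles). Smad7 sits at ranks 37 and 166, and the 3 windows without the motif are at ranks 877, 970 and 986.

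The DNA of the windows was then searched for the motif of the Runx family, which the selection of the members had not used. It was found in 9 of the 12 windows (75.0%, Wilson 95% interval 46.8 to 91.1) and in 66.1% of all windows. In the IgG-named list it was in 9 of 11 (81.8%), against 66.6% of all. The members' interval thus included the share of all windows. The motif was in each of the 9 windows up to rank 841, which are those of Smad7, Smurf1, Tgfb2, Ltbp1, the Smad3 intron and the first Ski window. It was in 0 of the 3 after that, at Ski (rank 877), Tgfbr2 and the interval between Smad3 and Smad6. Over all windows the share was 67.1% up to rank 841 and 61.0% after it. It was already 60.0% at ranks 667 to 841, so it did not fall at that rank. The split at rank 841 was chosen after the values were seen. In these 3 windows the closest match was just outside, at 81.5, 101.5 and 114.5 bp from the centre, and the median over all 339 windows without the motif was 95.5 bp.

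Most matches at the members had the same letters. Of 12 matches, 9 were TGTGGT, 2 were TGTGGC, 1 was TGCGGC and 0 were TGCGGT, while TGTGGT made up 48.8% of the 888 matches in all windows. The 12 matches came from only 9 windows, and the difference was not tested. The TGCGGC match was that of Ltbp1 at rank 841. Windows with 2 matches were those of Smad7 (rank 37), Smad3 (rank 381) and Ltbp1 (rank 466). In the printed sequence at the short Ltbp1 promoter the matches are 20.5 bp to the left of the centre and 17.5 bp to the right, and both read TGTGGT. The match closest to the centre was 5.5 bp away in Smad7 at rank 166 and 47.5 bp away in Tgfb2, where it is the first 6 letters of the window. The members' median was 22.5 bp, against 15.5 bp over the 661 windows with the motif. Only 1 member window, that of Smad3 and Smad6 at rank 381, had the motif also in a stretch of the same length 500 bp to the left, and none had it 500 bp to the right.

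**Figure D4:**
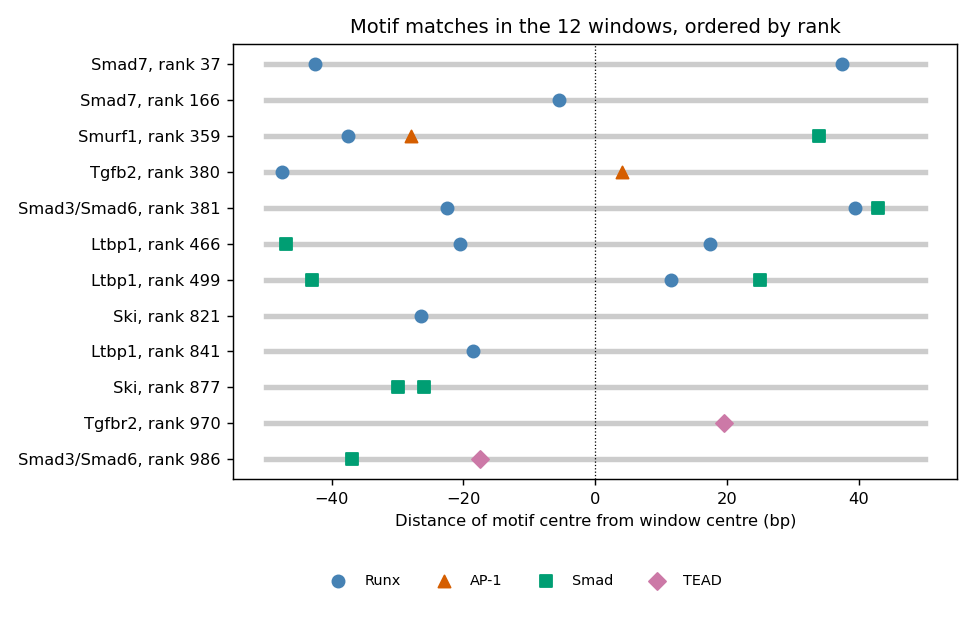
Motif matches in the 12 windows, ordered by rank, with the distance of the motif centre from the window centre in bp. The Runx motif is in the upper 9 windows, and AP-1 matches occur at Smurf1 and Tgfb2.

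The AP-1 motif, bound by Fos and Jun proteins, was in 2 of the 12 windows (16.7%), those of Smurf1 and Tgfb2, and in 11.3% of all windows. Both matches read TGACTCA and lay in a window that also held the Runx motif. In the Smurf1 sequence 3 letters separate the 2 motifs, and in that of Tgfb2 there are 45. The Smad motif CAGAC, a core of the sequences bound by Smad proteins, was in 6 of 12 windows (interval 25.4 to 74.6%), against 24.0% of all windows, whose interval was 21.5 to 26.7. In the IgG-named list it was in 5 of 11 (45.5%, 21.3 to 72.0), against 23.3%. These were the windows of Smurf1, both of Smad3 and Smad6, Ltbp1 at ranks 466 and 499, and Ski at rank 877. In the Smad3 intron the Smad match shares 2 letters with one Runx match, and 60 letters separate it from the other. The TEAD motif was in 2 windows (16.7%), those of Tgfbr2 and of the interval between Smad3 and Smad6, and in 11.6% of all windows. Both lacked the Runx motif.

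To read these counts, the motifs were compared between all 1000 windows and equally long stretches at 500 bp on either side, by the exact two-sided McNemar test with Benjamini-Hochberg adjustment over 8 tests. This compares windows of 1 library with their surroundings, and not conditions. The Runx motif was in 66.1% of windows against 16.1% to the left and 16.0% to the right (adjusted p 1.41e-105 and 2.5e-102). AP-1 was in 11.3% against 3.1% and 2.5% (adjusted p 7.41e-12 and 4.23e-15), and TEAD in 11.6% against 5.8% and 5.7% (adjusted p 6.09e-06 and 2.01e-06). For the Smad motif the difference did not pass the threshold of 0.05, with 24.0% against 23.3% and 20.5% (adjusted p 0.753 and 0.0721). The short Smad motif was thus about as frequent beside the windows as in them, and 2 of the 12 member windows had it to the left and 1 to the right.

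**Figure D5:**
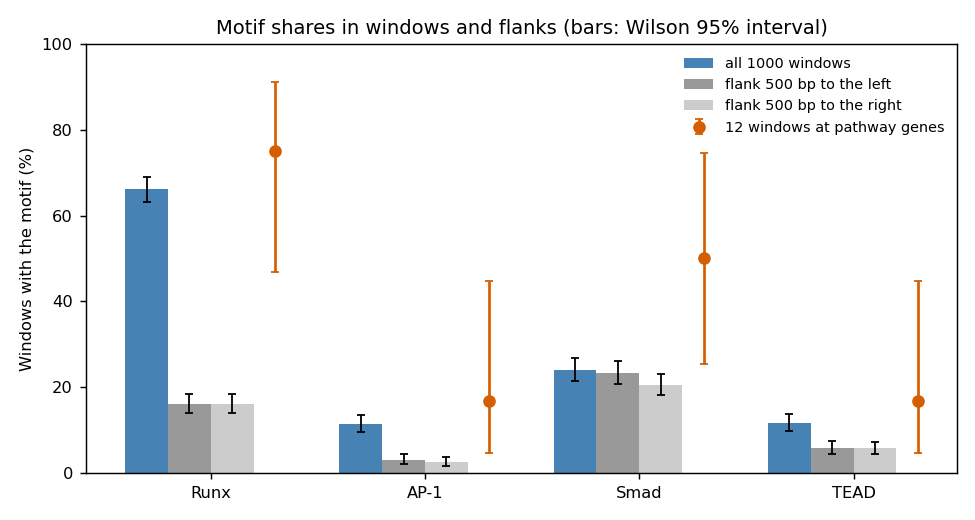
Share of windows with each motif, in percent, for all 1000 windows and their flanks (bars) and for the 12 windows at the 8 genes (points), with Wilson 95% intervals that cover counting error only. The interval of the 12 windows spans the share of all windows for Runx, AP-1 and TEAD and lies just above the point value of 24.0% for Smad.

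The GC content of the 12 windows had a median of 50.5% (40.6 to 68.3), against 54.5%, with Tgfb2 the lowest and the Ski window of rank 877 the highest. CpG dinucleotides were fewer, with a median of 0.5 (0 to 4), against 3 over all windows (0 to 20). The median distance to the nearest deposited TSS was 30.5 kb, against 19.0 kb.

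Finally, the rest of the pathway was read from a list of 60 genes grouped by role. Of these, 22 were in a row of the neighbour table, against 7.98% of 22225 protein-coding genes, and 11 had the nearest TSS of a window, against 3.65%. These counts, and those by role below, include the 8 members, which were chosen for having windows. The list of 60 genes was also written with earlier results of these data known, so the shares were not tested. Of the 52 other genes, 14 were in the table, and 4 had the nearest TSS. By role, the table held 2 of 3 TGF-beta ligands, 5 of 9 receptors and co-receptors, 1 of 6 receptor-activated and common Smads, both inhibitory Smads, 4 of 12 ubiquitin ligases, corepressors and other negative regulators, 5 of 12 genes of latency and activation, 2 of 9 Smad partners and adaptors, and 1 of 7 ligands of the activin, myostatin and nodal kind. Smad3 was thus the only Smad that is not inhibitory in the table, which covers the windows up to rank 1000 alone.

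Among the ligands and receptors, Tgfb1 had the window of rank 546, 24.9 kb from its TSS, with Ccdc97 closer. Tgfbr3, the co-receptor betaglycan, had the window of rank 549 in an intron, and Eng, the co-receptor endoglin, that of rank 36, 43.0 kb from its TSS. The activin receptor genes Acvr2a (rank 356) and Acvr1c (rank 770) and the activin subunit gene Inhba (rank 950) had windows 294 kb, 205 kb and 656 kb away. Most of these windows were thus nearer to the TSS of another gene, and the nearest TSS was that of the pathway gene only for Acvr2a and Inhba.

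Among the matrix and regulatory genes, Ltbp2, a relative of Ltbp1, had windows of rank 146 and rank 955 in introns, at 29533 bp and 21640 bp from its TSS. Like those of Ltbp1, both held the Runx motif, which was in 66.1% of all windows. Emilin1, an extracellular protein that restrains processing of the ligand precursor, had the window of rank 271, 5096 bp upstream of its TSS. Thbs1, an activator of the latent complex, was 445 kb from that of rank 416, and Fbn2, a fibrillin that binds latency proteins, 228 kb from that of rank 911. Skil, a relative of Ski, was 72.1 kb from the window of rank 292, and Tgif1, another corepressor, 104 kb from that of rank 397. Crebbp, a coactivator (rank 56), and Map3k7, a kinase of the non-Smad branch (ranks 158 and 448), were 136 kb, 216 kb and 606 kb away. Of these genes Ltbp2 and Tgif1 had the nearest TSS. In the IgG-named list 21 of the 60 genes had a window: Ltbp4 was added at rank 476, and Skil and Fbn2 were missing.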

How the data were processed

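SFZ chondrocytes carrying 3xFLAG-tagged Runx3 gave 3 ChIP-seq libraries (RUNX3-FLAG, IgG and input). According to the methods, the authors aligned reads with bowtie to unmasked mm9, called peaks against input with CisGenome and filtered them on P value and false discovery rate. The control for the IgG-named list was not given in the sources used here. The deposited values were ranks, positions and distances in bp to neighbouring genes within 10 Mb, with no counts, so the depth is unknown.

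The members and lists were chosen with earlier results of these data known. Genes named were the 8 members, the other genes listed for their windows, and pathway genes with a window. Positions were read as 0-based with both ends included and are printed 1-based. Distances run from the window centre. Where a gene had more than 1 transcript, the closest TSS was used. Partners were paired one to one with at least 1 bp in common. Sequences and GENCODE genes were of mm9. Newer symbols came from RefSeq by gene ID. Motifs were searched on both strands. Share intervals are Wilson 95% and cover counting error only. The tests passed 8 of 8 steps on simulated data. Alternatives were the assignment rule, distance limits, the IgG-named list, the top 33.3% of windows, GENCODE TSSs, the window edge, a narrower motif, a wider window and further flanks. The software was scipy 1.17.1, pandas 2.3.3, numpy 2.4.6 and matplotlib 3.10.9 under Python 3.11.15.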

Additional observations from a re-analysis of the deposited data

How the results depend on the processing

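Of 28 alternatives over 8 results, 19 were classed as the same, 8 as moved and 1 as weaker. For counts of windows or genes, the limit was a 1.5-fold change. The 12 windows became 4 when a member had to be the deposited nearest gene, 6 within 50 kb of the TSS and 2 among the top 33.3% of windows. They were 10 with the nearest TSS, 11 in the IgG-named list and 12 within 500 kb. The 22 pathway genes became 9, 11 and 7 with the deposited nearest gene, the nearest TSS and the top 33.3% of windows, and 21 in the IgG-named list. These rules keep fewer windows or pairs by construction. The members' share with the Runx motif rose from 75.0% to 100% (12 of 12) when windows were widened by 100 bp on each side, where all windows reached 90.1%. It was also 100% among the top 33.3% of windows (2 of 2), and 66.7% with only TGTGGT and TGCGGT. The TEAD excess over the flanks, averaged over both sides, was 5.85 percentage points, and 4.5 points in the top 33.3% of windows, where fewer windows were tested. Each side was tested on its own there, and the larger adjusted p was 0.0865 (exact McNemar test). The median distance to the TSS, 66.9 kb, was 66.8 kb with GENCODE TSSs and from the window edge. Single pairs shifted more with GENCODE TSSs, for example Ski at rank 821 from 127 to 92.9 kb and Smad3 at rank 381 from 31.3 to 14.7 kb. Smad7 went from 112 to 104 kb and from 89.6 to 82.0 kb.

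No paired analysis was possible because there was only 1 library in each group. There were no replicates to leave out. The unknown depth limits every rank, since a window's strength could not be set against its neighbours in the list.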
